A study of Mus musculus with 8 samples.

Results

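The core circadian clock genes were followed in ribosome-bound RNA of neurons that express the mu opioid receptor (MOR), taken from dissections aimed at the paraventricular nucleus of the thalamus (PVT). The 10 genes were Clock, Arntl, Npas2, Per1, Per2, Per3, Cry1, Cry2, Nr1d1 and Dbp, chosen by name from the 18939 genes of the deposited table of counts, and all 10 were found there. For each of them the transcript with the largest sum of counts was used. None of the 10 passed the test between the morphine group and the control group, and the spread between libraries of the same group differed widely from one clock gene to the next.

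All mice carried Cre recombinase at the Oprm1 locus (OPRM1cre) together with EGFP-L10a, a ribosomal protein fused to green fluorescent protein that is made where Cre has been active, so the control mice have the same alleles as the morphine mice. Ribosomes with the fusion protein were pulled down with antibodies to GFP, which is called translating ribosome affinity purification (TRAP). Cells that expressed Oprm1 at an earlier age can also carry the fusion protein, and the RNA of cells outside the PVT that were cut out with it cannot be told apart from that of PVT cells. The morphine group (4 libraries, replicates 3, 4, 7 and 8) drank morphine, up to 0.5 mg/ml, in 0.2% saccharin for 11 days, and the control group (4 libraries, replicates 1, 2, 5 and 6) received no morphine. The labels call its treatment control drinking water, while the methods of the study give it as saccharin alone. Adult mice were used and were killed around the middle of the light phase, so the data hold a single time of day. Each library pooled the dissections of 2 mice of the same sex, with 2 male and 2 female libraries in each group by the labels. Control replicate 5 is labelled female, yet its summed level of 4 Y-linked genes was 49.5 CPM, the unit used here for counts scaled to the size of the library, where the other libraries labelled female had 0.0206 to 0.0649 CPM and those labelled male 128 to 171 CPM.

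The circadian clock of a mammalian cell is a loop of transcription and translation. CLOCK, or its close relative NPAS2, pairs with BMAL1 (the product of Arntl) and switches on genes with an E-box in their regulatory DNA. Among these are the Per and Cry genes, whose proteins return to the nucleus and hold back their own activator, and Nr1d1, whose product REV-ERB alpha represses Arntl. Dbp is an output of the same activator and encodes a factor that drives genes with a D-box. The master pacemaker lies in the suprachiasmatic nucleus of the hypothalamus, to which the PVT is connected, and most other brain regions have clocks of their own.

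The loop is thought to act through short motifs in the DNA of these genes, and for that reason the promoter stretches with an E-box, E'-box, D-box or RORE match are given here. Windows from 250 bases before to 50 bases after each RefSeq transcription start (GRCm38.p6) were searched on both strands, and 13 windows of 9 of the genes were found among 32851 windows. Per2 had no window. The E-box CACGTG was found in 7.15% of all windows, and in 2 of the 13 clock windows. CACGTT, the weaker form called E'-box (AACGTG on the other strand), was found in 4.68% of all windows and in 3 of the 13. The D-box TTATGTAA occurred in 0.938% of all windows and in 1 of the 13, and TAGGTCA, a core of the element bound by the ROR and REV-ERB receptors (RORE), in 2.61% and in 1 of the 13. The cAMP response element TGACGTCA was in 1.79% of all windows and in 0 of the 13, and its shorter form TGACG, which lies within the full element, was in 20.8% of all windows and in 4 of the 13, at Cry1, Cry2 and Per1. These are matches of letters, not measured binding sites. The motif is in capitals in each stretch, written on the strand of the gene.

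Per1 (E-box, chr11:69098768-69098803, plus strand): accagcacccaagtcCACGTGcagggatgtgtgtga
Cry1 (E'-box and E-box, chr10:85185094-85185148, minus strand): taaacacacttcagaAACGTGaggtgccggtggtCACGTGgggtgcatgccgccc
Cry2 (E'-box, chr2:92434215-92434250, minus strand): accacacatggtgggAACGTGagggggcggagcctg
Nr1d1 (E'-box, chr11:98775385-98775420, minus strand): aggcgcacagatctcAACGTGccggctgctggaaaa
Per3 (D-box at both ends, chr4:151044801-151044885, minus strand): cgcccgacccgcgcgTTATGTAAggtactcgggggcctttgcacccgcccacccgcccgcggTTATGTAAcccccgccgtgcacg
Arntl (RORE, chr7:113207526-113207560, plus strand): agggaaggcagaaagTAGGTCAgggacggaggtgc

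The E-box letters were found at Per1 and Cry1, the E'-box letters at Cry1, Cry2 and Nr1d1, and the RORE letters at Arntl. The windows of Clock, Npas2 and Dbp held none of the 6 motifs searched, which says only that these letters are not in those windows. Per3 was the only one of the genes with the D-box letters in its window.

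Summed over the genes, the control libraries held 37081346 to 43311792 counts and the morphine libraries 31151106 to 47582947. Markers of neighbouring tissue differed between libraries. For 8 markers of telencephalic pyramidal neurons, the summed level was 128 to 314 CPM in the control group and 230 to 576 CPM in the morphine group, with all 8 higher in the mean of the morphine group. The sum of 10 choroid plexus markers was 34.1 to 104 CPM and 126 to 391 CPM, with 9 of 10 higher. Thalamic markers summed to 1725 to 2209 CPM and 1218 to 2375 CPM, with 0 of 7 higher, and Drd3, one of them, was under 1 CPM in every library. Markers of suprachiasmatic and other hypothalamic neurons summed to 10.8 to 33.7 CPM and 5.73 to 29.3 CPM, with 3 of 7 higher and Six6 under 1 CPM in every library. The sums were 41.5 to 64.2 and 35.8 to 59.5 CPM for medial habenula (3 of 5 higher), 248.9 to 441.0 and 323 to 387 CPM for astrocytes (7 of 8), 124 to 1250 and 585 to 1555 CPM for oligodendrocytes (9 of 9) and 1.08 to 6.12 and 2.25 to 3.58 CPM for microglia (2 of 7, with 5 of the 7 under 1 CPM in every library). No gene of these lists passed the test between the groups. Oprm1 itself had 16.8 to 32.3 CPM in the control and 14.0 to 18.4 CPM in the morphine libraries. Its log2 fold change was -0.62 (SE 0.19, edgeR unadjusted P = 0.00649, adjusted P = 0.2075). In such bulk RNA, fewer cells of a type and less RNA per cell cannot be told apart. The mean log2 CPM of a list, its score, was a covariate in some models below. The choroid plexus score was -0.524 to 1.912 in the control and 2.052 to 3.383 in the morphine libraries, without overlap. The telencephalic score was 2.287 to 4.675 and 3.963 to 5.398, with partial overlap. Score and group thus went together, so models with a score cannot separate morphine from tissue makeup.

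Transcripts of all 10 clock genes were present in every TRAP library. Levels between genes are compared as RPKM (CPM per kilobase of transcript) in the control group. The highest was Nr1d1 with 58.7 ± 6.79 RPKM (SD, n = 4), followed by Cry2 with 54.1 ± 3.39 and Dbp with 49.0 ± 2.88 RPKM. The ranges of Nr1d1 and Cry2, and those of Cry2 and Dbp, overlapped. Below them, with no overlap with Dbp, stood Per1 with 33.0 ± 7.67 and Clock with 24.3 ± 3.48 RPKM, whose ranges overlapped. The next step down led to Arntl with 16.1 ± 2.25, Cry1 with 12.6 ± 1.49 and Npas2 with 10.4 ± 1.28 RPKM, each overlapping its neighbour. Per3 with 6.19 ± 0.815 and Per2 with 4.91 ± 1.19 RPKM were lowest, apart from Npas2 and overlapping each other. From Per2 to Nr1d1 the levels spanned 11.9-fold, from percentile 54.7 to percentile 93.3 of all genes with a known length. At this time of day, REV-ERB alpha and DBP transcripts were thus several times as abundant per length as those of Per2 and Per3.

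**Figure D1:**
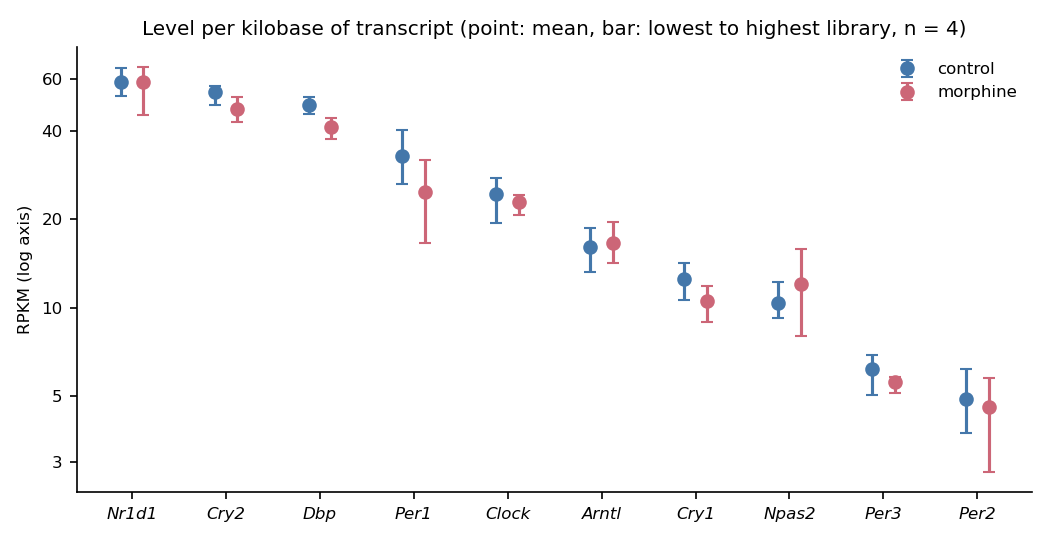
Level of each clock gene per kilobase of transcript (RPKM, log axis), ordered by the control mean. Points are means of 4 libraries and bars run from the lowest to the highest library, with control in blue and morphine in red. Nr1d1, Cry2 and Dbp stand highest and Per3 and Per2 lowest in both groups.

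To ask whether chronic morphine went with a different level of the clock genes, the morphine group was compared to the control group by edgeR's quasi-likelihood test over all 18939 genes. Of these, 37 genes (0.195%) had an adjusted P value under 0.05, and 0 of the 10 clock genes did. At an unadjusted P value under 0.05 there were 2292 genes (12.1%), and 1 of the 10 clock genes, Dbp. By DESeq2, 502 genes (2.65%) and 0 clock genes had an adjusted P value under 0.05. The log2 fold change was below 0 for 8 of the 10 clock genes and for 48.6% of all genes. The median log2 fold change of the 10 genes was -0.125, beside 0.009 for all genes and -0.005 for the 10737 genes with a mean of at least 5 CPM.

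**Figure D2:**
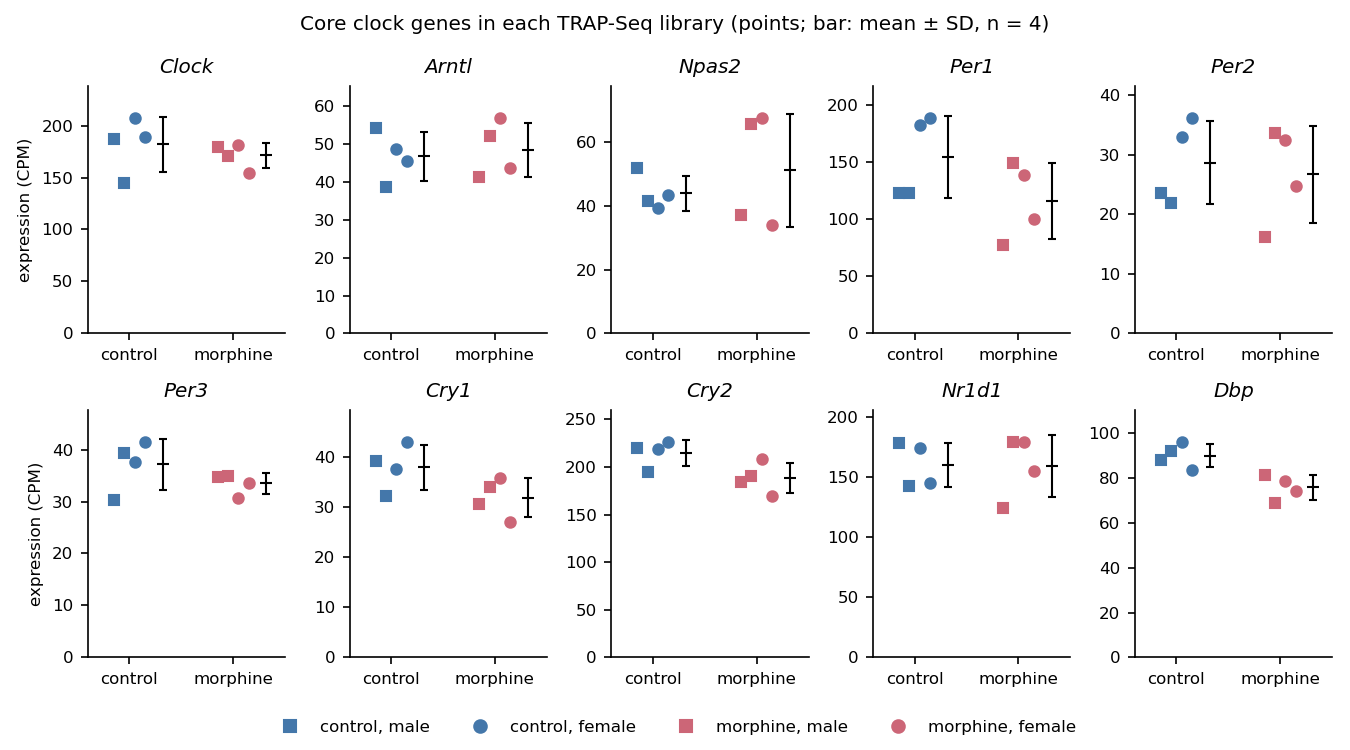
Expression of the 10 clock genes (CPM) in each library. Squares are male and circles female libraries by the labels, control in blue and morphine in red, and the bar beside each group is the mean ± SD of 4 libraries. The groups overlap for every gene but Dbp, where the highest morphine library (81.4 CPM) lies below the lowest control library (83.6 CPM).

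The activators come first. Clock (chromosome 5, 76209868 to 76305603, minus strand) encodes the usual partner of BMAL1. Its expression was 187, 145, 207 and 189 CPM in control replicates 1, 2, 5 and 6 and 179, 171, 181 and 154 CPM in morphine replicates 3, 4, 7 and 8. The morphine libraries all lay within the range of the control libraries. The log2 fold change, morphine over control, was -0.09 (SE 0.12, 95% interval -0.34 to 0.17, edgeR adjusted P = 0.792). Without control replicate 2 it was -0.18, and without control replicate 5 or morphine replicate 8 it was -0.035 or -0.039.

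Arntl (chromosome 7, 113178471 to 113314126, plus strand) encodes BMAL1, the activator without which the loop does not run. The control libraries had 54.2, 38.6, 48.7 and 45.6 CPM, and the morphine libraries 41.2, 52.0, 56.8 and 43.7 CPM. The ranges lay almost on top of each other, with a log2 fold change of 0.05 (SE 0.13, interval -0.24 to 0.34, edgeR adjusted P = 0.905). It was 0.25 with the score of choroid plexus markers in the model and -0.03 with that of telencephalic markers. The exons of Arntl share 33 bases with an antisense gene, Gm45355.

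Npas2 (chromosome 1, 39193702 to 39363240, plus strand) can stand in for CLOCK in the forebrain. It had 51.7, 41.5, 39.2 and 43.3 CPM in the control group. In the morphine group the values split, with 65.5 and 67.4 CPM in replicates 4 and 7 and 37.2 and 34.1 CPM in replicates 3 and 8. The highest and the lowest 2 libraries were all of the morphine group. The log2 fold change was 0.22 (SE 0.21, interval -0.25 to 0.68, edgeR adjusted P = 0.689). Morphine replicates 4 and 7 also had the highest sums of telencephalic markers, 576 and 521 CPM, against 230 and 391 CPM in replicates 3 and 8. The order was not the same elsewhere, since morphine replicate 8 had the lowest Npas2 of all and control replicate 6, with a marker sum of 314 CPM, had a middle value. A model with the score of those markers as a covariate gave -0.05 for Npas2 (edgeR unadjusted P = 0.894). With the choroid plexus score it was 0.47. Without morphine replicate 4 or 7 it was 0.07 or 0.04, and without morphine replicate 3 or 8 it was 0.34 or 0.37.

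The Per genes encode repressors, of which Per1 and Per2 are also induced by light and by signals through cAMP. Per1 (chromosome 11, 69095108 to 69109965, plus strand) had 123, 123, 182 and 188 CPM in the control group and 77.4, 149, 138 and 99.8 CPM in the morphine group. The lowest 2 libraries were morphine replicates 3 and 8, and the highest 2 were control replicates 5 and 6, with the others overlapping. Per1 had the largest difference of the 10 genes, with means of 153.9 ± 35.8 and 115.9 ± 33.2 CPM and a log2 fold change of -0.41 (SE 0.21, interval -0.88 to 0.06, edgeR adjusted P = 0.486). The difference was close to the SD within the groups, and the groups overlapped. Adding the telencephalic score to the model gave -0.98 (edgeR unadjusted P = 0.00593, adjusted P = 0.539), and adding the choroid plexus score gave -0.74. Leaving out morphine replicate 3 gave -0.26.

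Per2 (chromosome 1, 91415977 to 91459351, minus strand) had 23.6, 21.9, 32.9 and 36.1 CPM in the control group and 16.1, 33.7, 32.4 and 24.7 CPM in the morphine group. The order of the libraries resembled that of Per1. The ranges overlapped, and the lowest library, morphine replicate 3, lay below all control libraries. The log2 fold change was -0.10 (SE 0.23, interval -0.60 to 0.41, edgeR adjusted P = 0.888). It was -0.76 with the telencephalic score in the model (edgeR unadjusted P = 0.0294, adjusted P = 0.642), -0.48 with the choroid plexus score, and 0.08 without morphine replicate 3.

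Per3 (chromosome 4, 150997018 to 151044707, minus strand), which the loop can do without, had 30.2, 39.4, 37.6 and 41.4 CPM in the control group and 34.7, 35.0, 30.7 and 33.5 CPM in the morphine group. Control replicate 1 was the lowest library of all, while the other 3 control libraries lay above every morphine library. Morphine over control gave -0.15 on the log2 scale (SE 0.11, interval -0.40 to 0.10, edgeR adjusted P = 0.635). Without control replicate 1 it was -0.25 (edgeR unadjusted P = 0.0390, adjusted P = 0.624). With the choroid plexus score in the model it was -0.42 (edgeR unadjusted P = 0.0317, adjusted P = 1.00).

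The cryptochromes are the stronger repressors of the activator. Cry1 (chromosome 10, 85131700 to 85185054, minus strand) had 39.3, 32.2, 37.6 and 43.0 CPM in the control group and 30.6, 34.1, 35.9 and 27.1 CPM in the morphine group. A single control library, replicate 2, lay among the morphine libraries. In log2 terms the difference was -0.25 (SE 0.12, interval -0.52 to 0.01, edgeR adjusted P = 0.450), and -0.45 with the telencephalic score (edgeR unadjusted P = 0.0276, adjusted P = 0.639).

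Cry2 (chromosome 2, 92403646 to 92434085, minus strand) had 220, 195, 219 and 226 CPM in the control group and 184, 191, 208 and 170 CPM in the morphine group. Again it was control replicate 2 that overlapped, here with morphine replicate 7. A log2 fold change of -0.19 resulted (SE 0.09, interval -0.40 to 0.01, edgeR adjusted P = 0.456). Its exons share 295 bases with D930015M05Rik on the other strand, a gene with 0.06 to 0.18 CPM. The counting is not stated to use the strand, and how many reads of that stretch were affected was not tested.

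Nr1d1 (chromosome 11, 98767932 to 98775377, minus strand) encodes REV-ERB alpha, the repressor of Arntl. Control libraries had 178, 143, 174 and 145 CPM and morphine libraries 124, 179, 179 and 155 CPM. The group means, 159.6 ± 18.5 and 159.0 ± 26.2 CPM, were closer than for any other of the genes in log2 terms, with a log2 fold change of -0.01 (SE 0.13, interval -0.30 to 0.28, edgeR adjusted P = 0.989). Its exons share 263 bases with Thra, a thyroid hormone receptor gene on the opposite strand with a mean of 668.5 CPM in the control group and 671.4 CPM in the morphine group, and the counting is not stated to use the strand, so reads of that stretch cannot be assigned to one of them.

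Dbp (chromosome 7, 45705100 to 45710203, plus strand), the output gene, had 88.2, 92.1, 95.9 and 83.6 CPM in the control group and 81.4, 68.8, 78.5 and 74.3 CPM in the morphine group. It was the only one of the 10 whose groups were apart, and the morphine libraries were all below the control libraries for 3.21% of all genes. The means were 89.9 ± 5.30 and 75.8 ± 5.46 CPM, a change of -15.8% (95% interval -26.5% to -3.5%) with a log2 fold change of -0.25 (SE 0.09). The edgeR P value was 0.0178 unadjusted and 0.297 after adjustment over all genes, where Dbp ranked 1135th, and DESeq2 gave an adjusted P = 0.148. An exact two-sided permutation test gave P = 0.0286, the smallest value that 4 against 4 libraries allow. Dbp moved to -0.10 on the log2 scale when the telencephalic score was added (edgeR unadjusted P = 0.451). With the choroid plexus score instead, the value was -0.13 (edgeR unadjusted P = 0.425). The unadjusted P value of Dbp was thus not under 0.05 with either score, and both scores went together with the groups. Dbp shares 539 exon bases with Sphk2, a sphingosine kinase gene on the opposite strand, which had 43.9 ± 5.60 CPM in the control group and 35.8 ± 3.61 CPM in the morphine group (log2 fold change -0.29, SE 0.12, edgeR adjusted P = 0.334). How much each gene gave to the reads of that stretch was not tested.

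**Figure D3:**
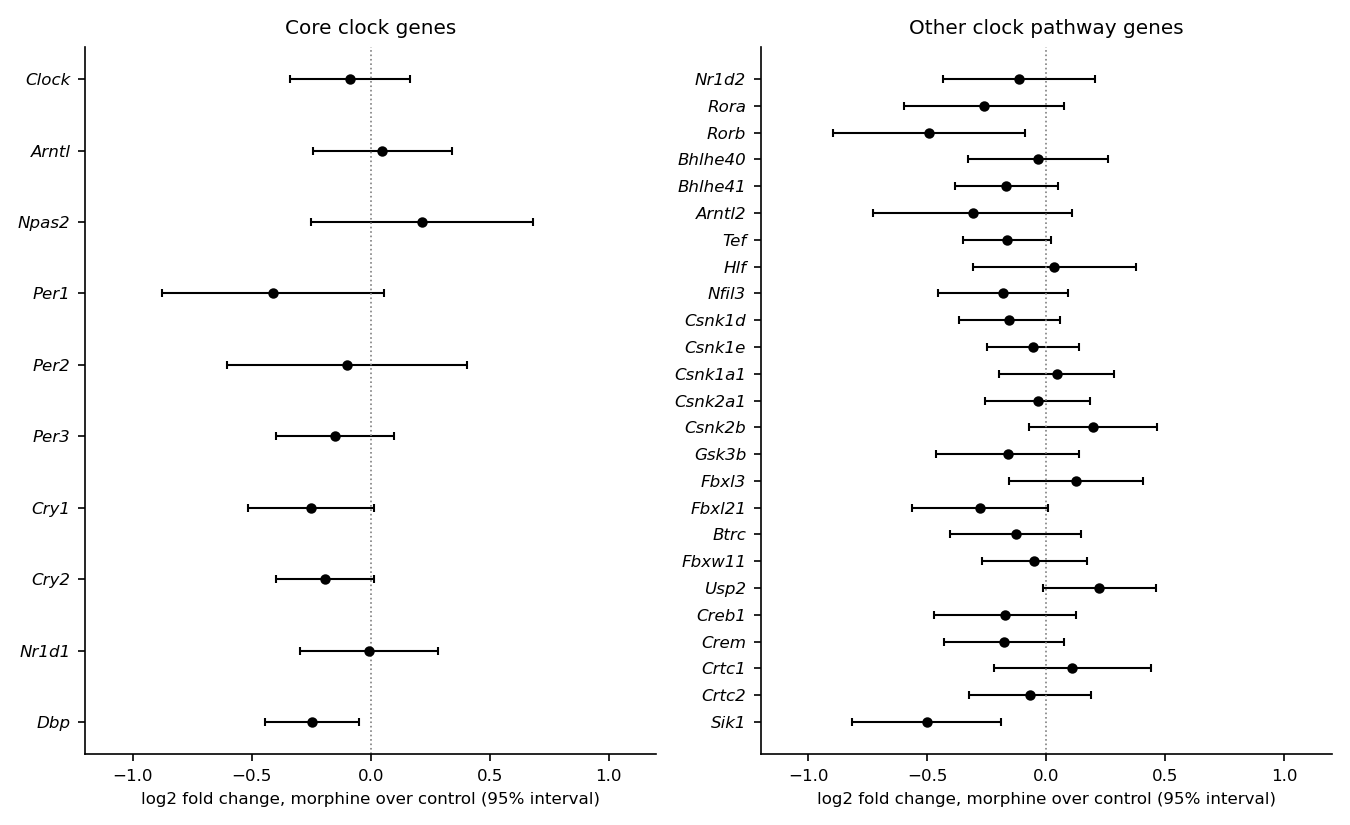
Log2 fold change, morphine over control, with its 95% interval from edgeR (n = 4 against 4), for the 10 core clock genes (left) and 25 other clock pathway genes (right). Among the core genes only the interval of Dbp, from -0.44 to -0.05, lies off 0, and among the others those of Rorb and Sik1. None of these genes had an adjusted P value under 0.05.

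Read by limb, the 3 activators had log2 fold changes of -0.09 to 0.22 and the 7 genes driven by them (the Per and Cry genes, Nr1d1 and Dbp) of -0.41 to -0.01, with a median of 0.05 for the former and -0.19 for the latter. All 7 of the driven genes had a value below 0. The mean log2 CPM of the activators minus that of the 7 driven genes was 0.13, -0.20, -0.20 and -0.25 in control replicates 1, 2, 5 and 6 and 0.14, 0.14, 0.22 and -0.06 in morphine replicates 3, 4, 7 and 8. Control replicate 1 stood with the morphine libraries, and morphine replicate 8 lay between the groups. The group means were -0.13 ± 0.17 and 0.11 ± 0.12 (SD, n = 4), a difference of 0.24 on the log2 scale. This score is a description, and no test was made of it. Its parts were 6.16 ± 0.16 and 6.20 ± 0.26 (mean log2 CPM, control and morphine) for the activators and 6.29 ± 0.14 and 6.09 ± 0.18 for the driven genes.

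**Figure D4:**
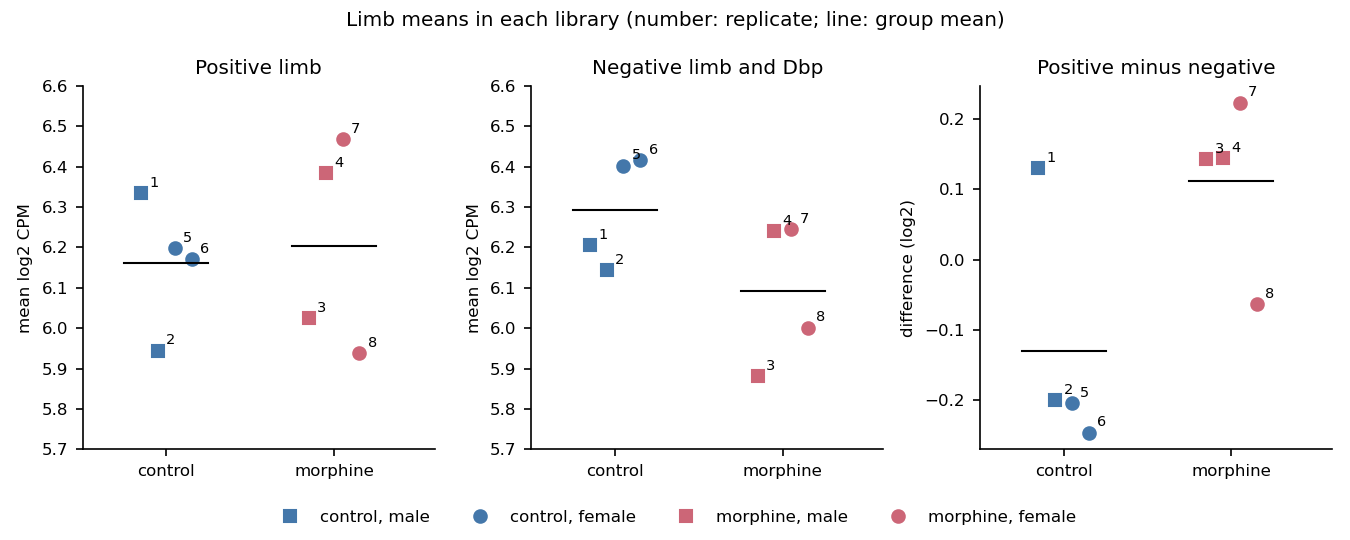
Mean log2 CPM of the activators (Clock, Arntl, Npas2) and of the negative limb with Dbp in each library, and their difference on the log2 scale. Numbers are replicates and lines are group means. The difference is above 0 in morphine replicates 3, 4 and 7 and in control replicate 1, and below 0 in the other 4 libraries.

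The clock genes differed in how much libraries of the same group varied. The SD of log2 CPM within groups was 0.43 for Per2, 0.39 for Per1 and 0.39 for Npas2, which is above that of 94.6%, 93.2% and 93.0% of the 10737 genes with a mean of at least 5 CPM. For Nr1d1 it was 0.21, for Arntl 0.21, for Cry1 0.18, for Clock 0.17 and for Per3 0.15, near the median of 0.17 over those genes. Cry2 with 0.11 and Dbp with 0.10 were among the steadiest, at percentiles 15.4 and 10.9. For Npas2 the spread lay in the morphine group, with an SD of 0.52 against 0.17 in the control group. Per1 and Per2 spread in both groups, with 0.34 and 0.35 in the control group and 0.44 and 0.49 in the morphine group.

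Sex was examined because both groups hold male and female libraries. Between female and male libraries, with condition in the model, 1 gene (0.00528%) had an edgeR adjusted P value under 0.05 and 587 genes (3.10%) an unadjusted P value under 0.05, with 0 clock genes among either. The largest differences were those of Per2, with a log2 difference, female minus male, of 0.40 (SE 0.20, edgeR unadjusted P = 0.0666, adjusted P = 1.00), and Per1, with 0.33 (SE 0.19, unadjusted P = 0.110). The other 8 lay between -0.10 and 0.09. In the control group Per1 averaged 123.0 CPM in male and 184.9 CPM in female libraries, and in the morphine group 113.2 and 118.7 CPM. The interaction of sex and morphine for Per1 was -0.52 (SE 0.37, edgeR unadjusted P = 0.184). For Per2 the means were 22.75 and 34.5 CPM in the control group and 24.9 and 28.6 CPM in the morphine group, with an interaction of -0.40 (SE 0.40, unadjusted P = 0.331). Over all genes 0 (0%) had an adjusted P value under 0.05 for the interaction by edgeR and 4 by DESeq2. At an unadjusted P value under 0.05 edgeR had 325 genes (1.72%) and 0 clock genes. One of the female control libraries is replicate 5, with its Y-linked counts. Without it, 0 clock genes and 5 of all genes were called for sex, and 0 of all genes for the interaction.

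Relations between clock genes were then examined across libraries. Correlations of log2 CPM over the 8 libraries were computed for 5 pairs, with exact permutation tests. Per1 and Per2, which share E-box and cAMP input, had Pearson's r = 0.908 (exact permutation P = 0.00169, adjusted over the 5 pairs 0.00843) and Spearman's rho = 0.881 (P = 0.00724, adjusted 0.0181). Without the 2 libraries farthest from the median of Per1, r was 0.739 over 6 libraries. For Arntl and Nr1d1, a target and its repressor, the relation was positive, with r = 0.860 (exact permutation P = 0.00836, adjusted 0.0209) and rho = 0.929 (P = 0.00223, adjusted 0.0112), and r was 0.903 without the 2 libraries farthest from the median of Arntl. Groups of 4 libraries, or 4 of a sex, are too few for a value within each. No pooled value is given for single pairs with Dbp or with Fos, whose groups are apart. Cry1 and Cry2, a pair picked after their values were seen, had r = 0.972 and rho = 0.976, and r was 0.945 without the 2 libraries farthest from the median of Cry1. Among all 45 pairs of the clock genes, those with Dbp included, r ran from -0.634 to 0.972 with a median of 0.397. It was negative for 8 of them, and the r values over 8 libraries printed above are the highest of the 45. All pairs share their libraries, and with them the depth and the makeup of the tissue.

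**Figure D5:**
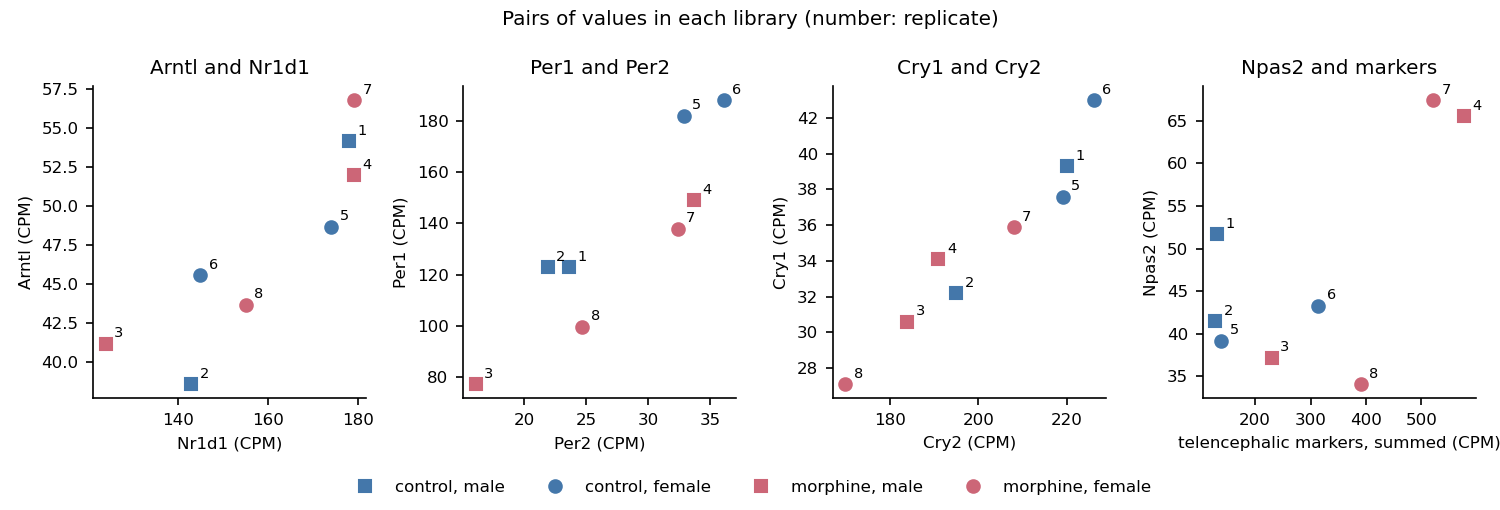
Pairs of values (CPM) in each of the 8 libraries, with numbers for replicates. The first 3 panels show Arntl and Nr1d1 (r = 0.860), Per1 and Per2 (r = 0.908) and Cry1 and Cry2 (r = 0.972), and the fourth shows Npas2 against the summed telencephalic markers, where morphine replicates 4 and 7 are high in both and morphine replicate 8 is not. Axes do not start at 0.

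The genes whose pattern over the 8 libraries was most like that of each clock gene were looked for among 10736 genes with a mean of at least 5 CPM. Clock was followed most closely by Kif5b (r = 0.992), a kinesin motor gene, and Gtf3c3 (r = 0.985). Arntl resembled Myst4 (r = 0.974) and Xrn2 (r = 0.955). For Npas2 they were Ppp1r9a (r = 0.975) and Zfp239 (r = 0.965). Per1 went with Usp42 (r = 0.975) and Slx4 (r = 0.970), and Per2 with Thop1 (r = 0.982) and Nfya (r = 0.978). Per3 had Kcnmb2 (r = 0.966), a potassium channel subunit gene, and Cdc42ep2 (r = 0.902). Ralgps1 was among the closest for both Cry1 (r = 0.987) and Cry2 (r = 0.976), with Bbs1 (r = 0.972) for Cry1 and Pycr1 (r = 0.982) for Cry2. Nr1d1 was closest to Ddx27 (r = 0.979) and 5830418K08Rik (r = 0.978). For Dbp they were 2810011L19Rik and Trim67, with no value given since its groups are apart. In 8 libraries the best of so many genes is bound to be high, so these values carry no test. No other clock gene was among the 2 closest, though for Cry1 the rounded r of Cry2 was the same as that of Bbs1 (0.972).

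The wider clock pathway was read from 6 lists with 26 genes, of which 25 were used. None passed the edgeR test between the groups. Values lay above 0 for 6 and below 0 for 19, with a median log2 fold change of -0.13, and 2 had an unadjusted P value under 0.05, a share below the 12.1% of all genes. In the loop of nuclear receptors that act on Arntl (Nr1d2, Rora and Rorb), 0 of 3 had a value above 0. Rorb, a ROR activator gene abundant in sensory thalamus and cortex, had 348, 238, 367 and 286 CPM in the control group and 260, 220, 253 and 148 CPM in the morphine group. The groups overlapped, with a log2 fold change of -0.49 (SE 0.18, edgeR unadjusted P = 0.0209, adjusted P = 0.313). Adding the choroid plexus score to the model gave -0.01, and the telencephalic score -0.31. Rora, the ROR alpha gene, had -0.26 (SE 0.15, edgeR adjusted P = 0.542), and 0.10 and 0.27 with the telencephalic and the choroid plexus score.

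Of the other repressors and the paralogue of Arntl, Bhlhe41 (DEC2) had a log2 fold change of -0.17 and Arntl2 of -0.31 (edgeR adjusted P = 0.545 and 0.566), with 0 of 3 above 0. The value of Bhlhe41 was -0.11 with the telencephalic and -0.07 with the choroid plexus score. Arntl2 was scarce, at 1.71 to 1.91 CPM in the control group and 1.27 to 1.69 CPM in the morphine group, which did not overlap. Tef and Hlf are relatives of Dbp that bind the same D-box, and Nfil3 (E4BP4) is the repressor at that site. Tef had 438, 462, 441 and 453 CPM in the control group and 410, 394, 415 and 382 CPM in the morphine group. Like Dbp, its groups were apart, with a log2 fold change of -0.17 (SE 0.08, edgeR adjusted P = 0.470). Nfil3 had -0.18 (SE 0.13, adjusted P = 0.602), and -0.36 and -0.40 with the telencephalic and the choroid plexus score.

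Kinases and ubiquitin ligases set the life span of PER and CRY proteins. Csnk1d, a casein kinase 1 gene that acts on PER, had a log2 fold change of -0.16 and Csnk2b, a casein kinase 2 subunit gene, of 0.20, both with an edgeR adjusted P = 0.570, and 2 of the 6 kinase genes were above 0. Fbxl21, an F-box gene for the ligase of CRY, had -0.28 (SE 0.13, edgeR adjusted P = 0.425), and Usp2, a deubiquitinase gene, had 0.22 (SE 0.11, edgeR adjusted P = 0.451), with 2 of 5 above 0. Under the telencephalic and choroid plexus scores they were -0.19 and -0.003 for Fbxl21, -0.04 and 0.08 for Usp2, -0.28 and -0.12 for Csnk1d, and 0.52 and 0.42 for Csnk2b, which had 0.09 without control replicate 6. For the genes through which cAMP signals reach Per1, 1 of 5 was above 0. Sik1, the salt-inducible kinase gene that is induced by CREB and restrains it, had 75.2, 81.1, 71.7 and 110 CPM in the control group and 55.1, 62.8, 68.3 and 52.1 CPM in the morphine group. Its groups were apart, with means of 84.4 ± 17.3 and 59.6 ± 7.38 CPM and a log2 fold change of -0.50 (SE 0.14, edgeR unadjusted P = 0.00464, adjusted P = 0.186). The value was -0.90 with the telencephalic score (edgeR unadjusted P = 0.000112, adjusted P = 0.302) and -0.76 with the choroid plexus score. Crem, a cAMP-responsive factor gene, had -0.18 (SE 0.12, edgeR adjusted P = 0.588), and -0.33 and -0.35 with these scores. Across the pathway 3 of 25 genes (Arntl2, Tef and Sik1) had all morphine libraries below the control libraries, beside 3.21% of all genes.

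Fos, an immediate early gene of the same CREB input as Per1, was called. It had 96.6, 94.7, 74.1 and 94.1 CPM in the control group and 52.4, 50.6, 45.4 and 39.0 CPM in the morphine group. The groups were far apart, with a log2 fold change of -0.94 (SE 0.12, edgeR adjusted P = 0.0176). This call was lost, with an edgeR adjusted P value of 0.0551 to 0.0905, without control replicate 1 or morphine replicate 4, 7 or 8. It was also lost, with 0.527 and 1.00, under the telencephalic and choroid plexus scores, which went together with the groups. The log2 fold change of Fos stayed between -1.04 and -0.86. Within the morphine group, Fos was lowest in replicate 8 and Per1 in replicate 3.

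Of the clock genes Arntl, Per1 and Cry2 have a second transcript in the table. Its total count was 97.7% of that of the first for Arntl and 100% for Per1. Their transcripts thus appear to share nearly all reads, which was not tested. For Cry2 it was 53.1%. The count of the second Cry2 transcript was 51.8%, 51.2%, 53.2% and 51.7% of that of the first in the control group and 53.7%, 53.6%, 54.4% and 55.8% in the morphine group. The groups were apart by a narrow margin, with means of 51.9 ± 0.88% and 54.4 ± 1.00% (SD, n = 4), a difference of 2.44 percentage points. Of 394 genes with such a pair of transcripts, 34 (8.63%) had groups that did not overlap. This comparison was chosen after the values were seen and carries no test.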

How the data were processed

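The authors deposited 1 table of read counts per RefSeq transcript in 8 libraries, as whole numbers and not normalized. Reads shared by transcripts of a gene appear to be counted on each. The tool that made this table, and whether it used the strand, are not given in the sources used here. The methods of the study name Salmon and tximport for its own matrix, and the submitters' processing notes name mm10 and DESeq2. All 8 columns were matched to samples by title.

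For genes with several transcripts, the one with the largest sum of counts was kept, a choice made once the table's form was known. Groups and sex came from the labels. Genes with any count in these libraries were tested by edgeR 4.0.16 (R 4.3.3) with TMM factors, glmQLFit, glmQLFTest and condition in the model, with Benjamini-Hochberg adjustment over 18939 genes, and an adjusted P value under 0.05 is a call. CPM used TMM-normalized library sizes, and log2 CPM a prior count of 2. SEs are the log2 fold change over the square root of F. Exact permutation tests of single genes used log2 of CPM + 0.5 over 70 arrangements. Coordinates and promoters were those of RefSeq (GRCm38.p6). Lengths were those of the GENCODE transcript matched to each RefSeq transcript, the longest where several matched, and were found for 18500 genes. Gene strands and exon overlaps also came from GENCODE.

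The replicate numbers are not shared between groups. Libraries are pools of different mice, and no batch is given. PCR copies are not marked, so counts are not independent molecules. Alternatives were DESeq2 1.42.0, limma-voom (limma 3.58.1), RLE and upper-quartile factors, filterByExpr, sex or marker scores in the model, the sum over transcripts and each library left out. The tests were tried on simulated data. All 10 members are named. Of each pathway list, any called gene and otherwise the 2 with the lowest P value are named, and for each member the 2 genes with the highest r. One gene of the pathway lists is not reported here. The members, lists and tests were chosen with earlier results of these data known.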

Additional observations from a re-analysis of the deposited data

Results flagged for a closer look

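The score of the activators minus the negative limb with Dbp, in mean log2 CPM, was 0.13 in control replicate 1, far from -0.20, -0.20 and -0.25 in the other 3 control libraries. Its gap to them, divided by the range of the group, was above Dixon's critical value for 4 samples. This was 1 of 22 groups looked at in this way, and chance flags about 1 in 20. Without control replicate 1 the difference between the groups was 0.33 on the log2 scale instead of 0.24.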

How the results depend on the processing

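None of the 10 clock genes was called for morphine under any of the 17 alternatives (8 that leave out a library and 9 others), and their lowest adjusted P value was 0.148, for Dbp under DESeq2. Of 170 log2 fold changes under these alternatives, 158 kept their direction and 12 did not. Per1, Per3, Cry1, Cry2 and Dbp stayed below 0 throughout, with ranges of -0.98 to -0.26, -0.42 to -0.12, -0.45 to -0.18, -0.28 to -0.13 and -0.30 to -0.10. With the choroid plexus score in the model, Clock (0.032), Nr1d1 (0.14) and Rora (0.27) turned to above 0. With the telencephalic score, Arntl (-0.034), Npas2 (-0.05), Rora (0.10) and Usp2 (-0.037) changed direction. Both scores went together with the groups, so these models cannot separate morphine from tissue makeup. Leaving out 1 library at a time gave -0.055 to 0.119 for Arntl, -0.23 to 0.081 for Per2 and -0.088 to 0.098 for Nr1d1; the cause was not tested. The limb difference was 0.20 to 0.33 under other normalization factors, prior counts or limb members, summed transcripts, or with 1 library left out. It was not computed with sex or marker scores in the model. The Cry2 transcript difference was 1.98 to 2.86 percentage points without 1 library, an alternative added after the data were seen. The number of all genes called moved from 37 to 502 under DESeq2, 110 with sex in the model, 23 with limma-voom, 22 with the sum over transcripts, 14 with filterByExpr, 1 with the telencephalic and 0 with the choroid plexus score, and 0 to 77 without 1 library. It was 1 without control replicate 1, 0 without morphine replicate 4 or 8, 11 without morphine replicate 7 and 20 without control replicate 5. Under sex it was 1, and 21 by DESeq2. With 4 libraries a group, the 95% interval of Per1 runs from -45.5% to 4.0% and that of Npas2 from -16.0% to 60.5%, so changes within those intervals are not excluded for these genes. Pooled mice, a single time of day and counts not stated to use the strand limit the rest.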
